A study of Oryza sativa with 6 samples.

Results

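In rice roots (Oryza sativa, varieties Prasanna and Varadan), 65 genes gave low signals on 3 of 6 arrays and high signals on the other 3. A probe set, the group of short probes that reads 1 transcript on an Affymetrix array, was taken when it was annotated with a single locus and met 3 limits. Its lowest value on the 3 high arrays lay at least 1.5 log2 units above its highest value on the 3 low arrays. The Varadan arrays among the low 3 differed from each other by less than 1 log2 unit, and every value on the high arrays was at least 8. Genes of nitrite and nitrate reductase, glutamate synthase, asparagine synthetase, haemoglobin, NIGT1 and NRT1.1B were left out by the same rule. In all, 70 probe sets for 65 genes remained, of 34860 probe sets with a single locus for 25727 genes. The genes were chosen by their measured log2 values on all 6 arrays, so the difference between the 3 low and the 3 high arrays is given below as a description and supports nothing.

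Seedlings were grown in hydroponics and their roots taken at 14 days by the label. After 7 days of germination they spent 10 days in Yoshida medium with nitrogen, and were then moved to the same medium with supplemented nitrogen or without it. Taken one after the other, the 7 and 10 days are longer than the 14 days of the label. How these times relate was not resolved here. Prasanna without nitrogen and Varadan without nitrogen have 1 array each, and each variety with nitrogen has 2. The design text names 2 replicates of each, and a further array without nitrogen of either variety was not analysed here. How many plants went into an array, and whether the arrays came from separate cultures, is not given in the sources used here, so the p-values below rest on a spread between arrays that may be technical.

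The low arrays were Prasanna without nitrogen, Varadan without nitrogen and Varadan with nitrogen, replicate 1. The high arrays were Prasanna with nitrogen, replicates 1 and 2, and Varadan with nitrogen, replicate 2. Values are given in these orders throughout, as log2 MAS5 signals. By the labels, the low arrays therefore do not share a nitrogen supply: 1 of the 3 is labelled with supplemented nitrogen. That array and the Varadan array without nitrogen carried exchanged columns in the deposited tables, and which of the tables is right is not stated. The rule treats both arrays alike and gave the same 65 genes from either table. OsNRT2.3, a nitrate transporter outside the rule, read 11.31, 12.49 and 12.29 on the low arrays and 6.82, 7.06 and 7.78 on the high arrays. It was high on all 3 low arrays, including the one labelled with nitrogen.

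Roots take up nitrate through transporters of the plasma membrane and reduce it to nitrite in the cytosol and to ammonium in plastids. In root plastids, which have no photosynthetic electron flow, ferredoxin receives electrons from NADPH through a ferredoxin-NADP reductase, and nitrite reductase and glutamate synthase draw on it. Nitrate also acts as a signal in rice roots, where many genes of reduction, reductant supply and carbon use respond to it.

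The 3 arrays of each kind were close to each other over the 65 genes. The median of the genes was 9.01, 9.03 and 8.97 on the low arrays and 11.79, 11.68 and 11.67 on the high arrays. Over all 34316 tested probe sets the medians lay between 7.93 and 8.03, with no such split. The gap between the lowest high array and the highest low array ran from 1.505 to 5.18 log2 units with a median of 1.92. It was at least 2 in 26 genes, at least 3 in 4 genes, and under 2 in 39. The mean of the high arrays exceeded that of the low arrays 3.71-fold to 60.02-fold, with a median of 6.07-fold. Among all tested probe sets, 15.1% had every low array below every high array and 0.396% had a gap of at least 1.5. In whole roots, a smaller share of the cells that express a gene and less of its RNA per cell cannot be told apart.

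**Figure D1:**
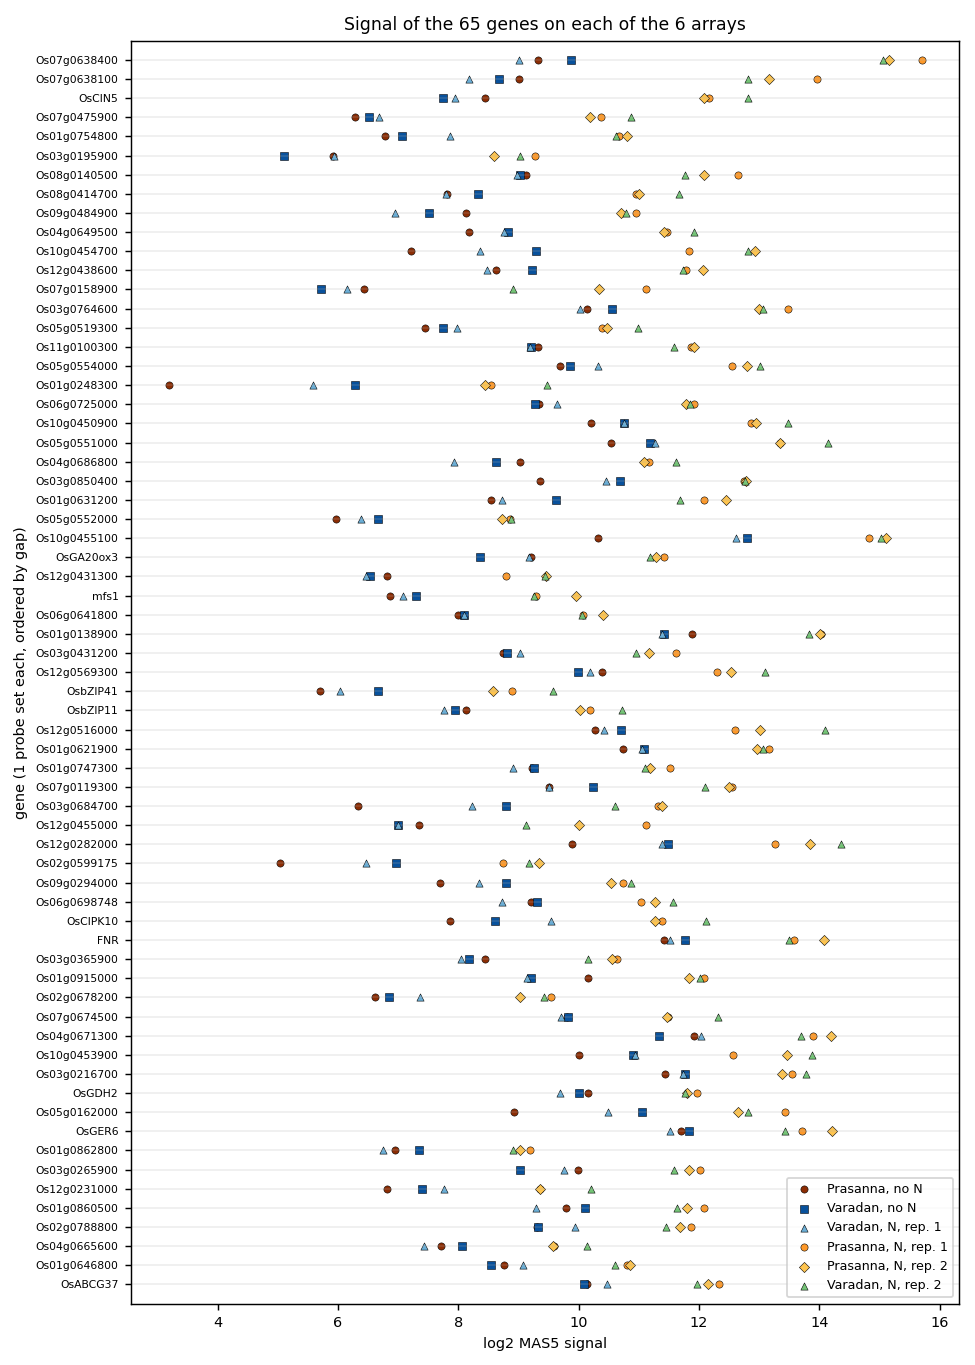
Log2 MAS5 signal of each of the 65 genes (rows, ordered by gap) on the 6 arrays (1 marker per array). In every row the 3 markers of the high arrays lie to the right of the 3 of the low arrays, which the rule required; the distance is longest for Os07g0638400, with a gap of 5.18, and shortest for OsABCG37, with a gap of 1.505.

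The reference table names 10 of the 65 genes, and the other genes are given here by their locus. The named genes include a cell-wall invertase, a ferredoxin-NADP reductase, a glutamate dehydrogenase, a calcium-responsive protein kinase and a pair of bZIP transcription factors. No mature transcript, protein or promoter sequence was used here.

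OsCIN5 (Os04g0664900), a cell-wall invertase that splits sucrose outside the cell, had the longest gap among the named genes. It read 8.45, 7.75 and 7.94 on the low arrays and 12.16, 12.08 and 12.81 on the high arrays, a gap of 3.63 and a 19.8-fold difference of means. The Varadan high array was the highest and the Varadan arrays among the low 3 were the lowest. Of 15 genes of invertases and sucrose synthases with a probe set, 8 had no overlap between low and high arrays, OsCIN5 itself among them, beside 15.1% of all tested probe sets. The list's median gap was 0.51 against -0.76 over all tested probe sets. OsCIN6, another cell-wall invertase and the gene next to OsCIN5, read 5.59, 5.46 and 5.16 against 7.84, 7.44 and 7.75. It had a gap of 1.85 but stayed outside the rule because its high arrays were below 8. OsSUS4, a sucrose synthase, had a gap of 1.42, and the invertases OsCIN2 and OsCIN1 had gaps of 1.29 and 0.88. The sucrose synthases OsSUS3, OsSUS2 and OsSUS1 had smaller gaps of 0.80, 0.72 and 0.51. Trehalose-6-phosphate phosphatases, which make the sugar trehalose from its phosphate, gave no gene under the rule. Of their 8 genes 4 had no overlap, beside 15.1% of all, with a gap of 1.62 for OsTPP1, which missed the limit on the difference of the Varadan arrays.

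FNR (Os03g0784700), a ferredoxin-NADP reductase, read 11.42, 11.77 and 11.51 on the low arrays and 13.58, 14.08 and 13.49 on the high arrays. Its 3 low arrays lay close together, and so did the varieties on the high arrays. The gap was 1.72 and the difference of means 4.42-fold. The list of ferredoxin-NADP reductase and pentose phosphate enzymes held 4 genes, of which 2, FNR included, had no overlap, beside 15.1% of all, and FNR alone met the rule. The electron-accepting side of this route was left out of the 65 genes by the rule, but its nitrite reductase (Os01g0357100) met the limits too, with 9.98, 11.26 and 10.73 against 13.41, 13.93 and 14.31. The other genes left out that met the limits were asparagine synthetase (Os03g0291500), NRT1.1B (Os10g0554200) and NIGT1 (Os02g0325600), with gaps of 1.71, 1.53 and, for NIGT1, at least 2.77, since low readings of it were below the 40th percentile.

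OsGDH2 (Os04g0543900), a glutamate dehydrogenase that links glutamate and 2-oxoglutarate in mitochondria, read 10.15, 10.00 and 9.69 on the low arrays and 11.96, 11.80 and 11.76 on the high arrays. Neither group of arrays varied by more than 0.5 log2 units, and the gap was 1.61. OsGDH1, its paralogue, read 11.57, 11.49 and 11.50 against 12.48, 12.76 and 12.43, with no overlap and a gap of 0.86. In the list of amino acid and nitrogen assimilation enzymes 5 of 12 genes had no overlap, OsGDH2 included, beside 15.1% of all. OsGDH2 alone was one of the 65. Of the 5, OsAsp1 and OsP5CS2 had gaps of only 0.26 and 0.25, with low-array readings below the 40th percentile. OsAsp1 was matched by its name alone, and whether it belongs with these enzymes was not checked, so nothing is read from the share.

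OsCIPK10 (Os03g0339900) encodes a kinase of the family that calcineurin B-like calcium sensors activate. It read 7.87, 8.61 and 9.54 on the low arrays and 11.38, 11.27 and 12.12 on the high arrays, a gap of 1.73. Prasanna without nitrogen was the lowest array and Varadan with nitrogen, replicate 2, the highest. Another 3 probe sets of this gene, which the rule did not take, had gaps of 1.27, 1.39 and 1.41. Of 34 CIPK and CBL genes, 7 had no overlap, a share near the 15.1% of all tested probe sets, and OsCIPK10 alone met the rule. A probe set annotated with both OsCIPK15 and OsCIPK14 met the limits as well, with 7.25, 9.20 and 8.62 against 12.63, 12.37 and 12.90 and a gap of 3.17. It was not counted because it reads more than 1 locus.

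Of 18 genes of bZIP transcription factors, 5 had no overlap, beside 15.1% of all tested probe sets, and 2 of the 5 met the rule. OsbZIP41 (Os05g0443900, also TGAL5), a TGA-like factor, read 5.70, 6.67 and 6.03 against 8.89, 8.58 and 9.57. OsbZIP11 (Os01g0859500, also LG2), related to the maize factor liguleless2, read 8.12, 7.94 and 7.76 against 10.19, 10.02 and 10.72. Both had Varadan with nitrogen, replicate 2, as the highest array, and gaps of 1.91 and 1.89. A second probe set of OsbZIP11 also met the rule, with a gap of 1.79.

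OsGA20ox3 (Os07g0169600), a gibberellin 20-oxidase that makes precursors of active gibberellins, read 9.20, 8.36 and 9.18 on the low arrays and 11.41, 11.28 and 11.18 on the high arrays. The high arrays differed little, and among the low arrays Varadan without nitrogen was the lowest. The other deposited table gives that reading to Varadan with nitrogen, replicate 1. OsGER6 (Os08g0189600), a germin-like protein of the cell wall, read 11.70, 11.84 and 11.51 against 13.71, 14.21 and 13.43, and OsABCG37 (Os01g0609900, also PDR8), an ATP-driven transporter of the pleiotropic drug resistance type, read 10.14, 10.08 and 10.47 against 12.33, 12.15 and 11.97. In both genes Varadan with nitrogen, replicate 2, was the lowest of the high arrays. The gene listed as mfs1 (Os01g0279400) read 6.87, 7.30 and 7.08 against 9.29, 9.95 and 9.25.

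**Figure D2:**
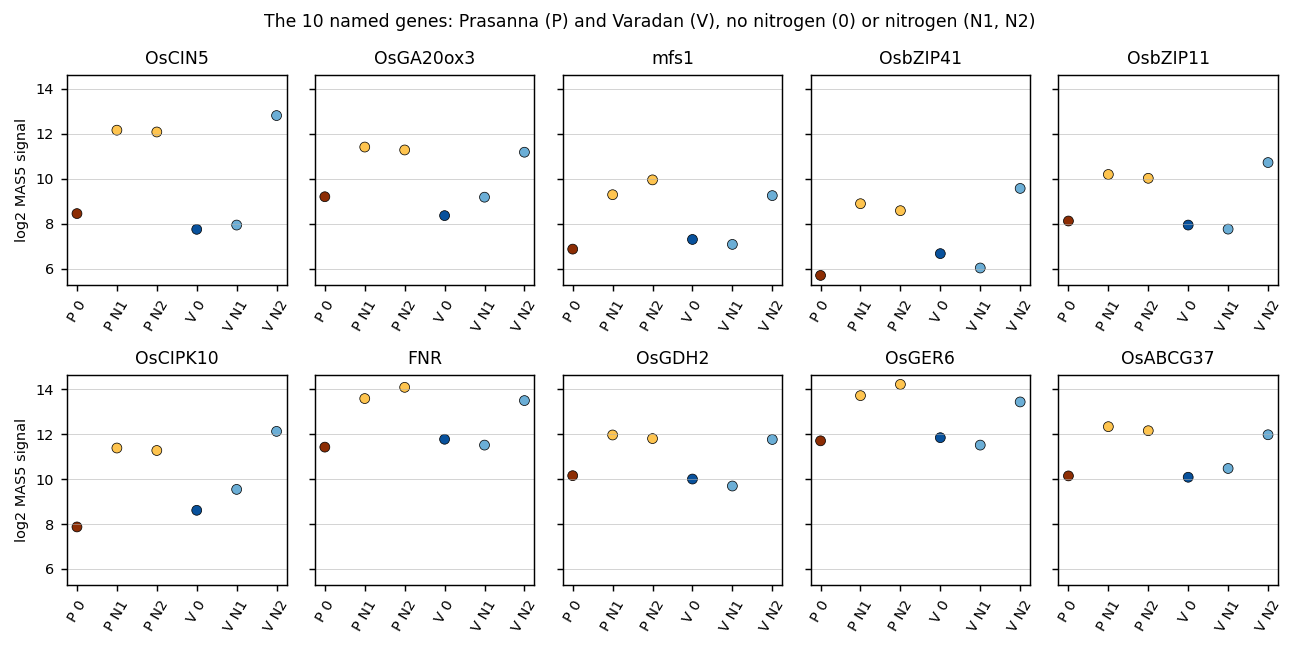
Log2 MAS5 signal of the 10 named genes by array, 1 point per array: Prasanna (P) and Varadan (V) without nitrogen (0) and with nitrogen, replicates 1 and 2 (N1, N2). In every panel V N1 sits with P 0 and V 0, as the rule required, and for OsCIN5 the high points lie between 12.08 and 12.81.

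Glutaredoxins, small thiol proteins that reduce disulfides with glutathione, gave no gene under the rule. Of 20 genes 3 had no overlap, a share like the 15.1% of all tested probe sets. GRXC1 read 6.17, 8.77 and 7.28 against 11.86, 11.77 and 10.92, but its Varadan arrays among the low 3 differed by more than 1. The other lists held few or none: 16 of 21 lists, with 299 of the 382 genes looked up, held none of the 65 genes. Among 40 expansins, which loosen cell walls, 1 had no overlap, beside 15.1% of all. None of the 5 genes of the NRT2 and NAR2 nitrate transporters had every low array below every high array, and their median gap was -3.19. The lists were matched by gene names, so genes without a name could not be counted in them.

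**Figure D3:**
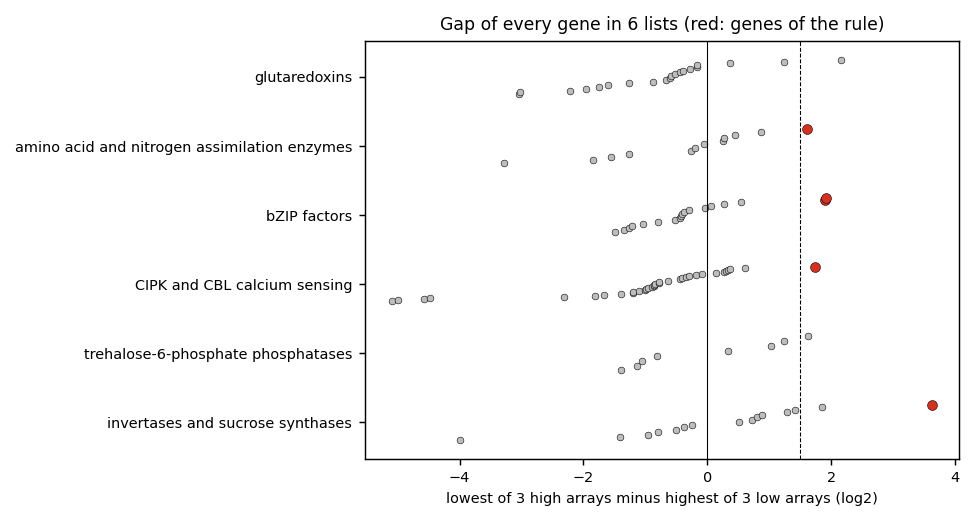
Gap (lowest high array minus highest low array, log2) of each gene in 6 lists, with red points for genes among the 65. The solid line marks 0, above which the arrays do not overlap, and the dashed line marks 1.5; OsCIN5, at 3.63, lies farthest to the right.

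The genes with the longest gaps were mostly without a name. This order rests on 1 probe set a gene. A second probe set of Os10g0455100 had a longer gap, 5.42, but the gene is ranked by its brighter one, at 2.03. Os07g0638400 read 9.33, 9.88 and 9.0 on the low arrays and 15.70, 15.16 and 15.06 on the high arrays, a gap of 5.18. Os07g0638100 read 9.01, 8.68 and 8.18 against 13.96, 13.16 and 12.82, a gap of 3.81. Prasanna was higher than Varadan on the high arrays in both genes, and they are neighbours on chromosome 7. Between them lies R1C-Prx (Os07g0638300), a peroxiredoxin with a single reactive cysteine, which read 5.20, 3.18 and 4.50 against 6.61, 5.88 and 5.83. Its arrays did not overlap either, but all of its readings were below 8, and 2 on the low arrays were below the 40th percentile of their array.

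Os07g0475900 read 6.28, 6.52 and 6.68 against 10.37, 10.18 and 10.87, with Varadan highest among the high arrays. Next by gap were Os01g0754800 at 2.76, Os03g0195900 at 2.67, Os08g0140500 and Os08g0414700 at 2.62, and Os09g0484900 and Os04g0649500 at 2.58. These 6 genes had high arrays between 8.60 and 12.65 and low arrays between 5.10 and 9.13. In Os03g0195900 the reading of Varadan without nitrogen, by the table used here, was below the 40th percentile of its array. The mean of its high arrays was therefore at least 9.25-fold that of its low arrays.

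Os04g0671300 read 11.91, 11.33 and 12.04 against 13.90, 14.20 and 13.69, and Os01g0138900 read 11.88, 11.42 and 11.39 against 14.03, 14.01 and 13.82. In both, Varadan was the lowest of the high arrays, by a small margin.

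At the edge of the rule, the 3 genes just inside were OsABCG37, Os04g0665600 and Os01g0646800, with gaps of 1.505, 1.507 and 1.514. Just outside were Os02g0143200, Os05g0541400 and Os02g0668500, with gaps of 1.496, 1.482 and 1.45. Os02g0143200 read 7.06, 7.01 and 7.13 against 8.86, 8.72 and 8.63, with the same order of groups as the genes inside, so the rule cuts through a continuous range. A probe set without any locus also met the limits on values, with 1.20, 1.73 and 1.22 on the low arrays and 8.81, 8.78 and 9.74 on the high arrays. All 3 low readings were below the 40th percentile of their array, so its gap is at least 3.36 and has no place in the order of the genes.

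Other probe sets of the same loci read the same RNA samples with other probes. There were 30 of them for 18 of the 65 genes. Of the 30, 18 had no overlap between low and high arrays, beside 15.1% of all tested probe sets. A gap of at least 1.5 was found in 2 of the 30, beside 0.396% of all. In 10 of the 30 at least 1 high array was below the 40th percentile of its array. These counts are a description, since the probe sets share their transcripts with those the rule chose. Os12g0569300 had 10.42, 9.66 and 9.74 against 11.78, 12.08 and 12.28 in its other probe set. Os06g0641800 had 7.12, 7.26 and 7.30 against 8.64, 8.97 and 8.60. Other probe sets had a shorter gap or overlapped. Among these were OsGDH2, with gaps of 0.67 and -1.23, and Os10g0450900, with 6.57, 7.64 and 7.0 against 7.56, 7.42 and 8.70. The other probe sets of mfs1 all had readings below the 40th percentile. With these raised to that percentile, their gaps were 1.40, -0.51, -1.13 and -1.40. In Os01g0646800, another probe set read 1.26, 8.87 and 9.72 against 0.61, 0.93 and 11.40, high on all Varadan arrays and near the lowest readings on all Prasanna arrays. Of the 70 probe sets that met the rule, 13 carry a suffix of the array design for probes shared with other transcripts, 8 of them _s_at and 5 _x_at.

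The gene order of the reference placed 60 of the 65 genes, on all 12 chromosomes. Chromosome 1 held 11, chromosome 3 held 10 and chromosomes 7 and 12 held 7 each. In 3 stretches, 7 genes lay at most 5 genes from another of the 65. On chromosome 10 these were Os10g0453900, Os10g0454700 and Os10g0455100. Os10g0454700 read 7.21, 9.29 and 8.36 against 11.84, 12.93 and 12.81. Os10g0453900 read 10.00, 10.90 and 10.94 against 12.57, 13.46 and 13.87, so that in both genes Prasanna without nitrogen was the lowest array. Genes between them did not all share the pattern: Os10g0454300 had a gap of 1.21, but Os10g0454200 and Os10g0454500 had gaps of -0.41 and -0.22. The matching counts over all genes are not given here, so no clustering is read from the counts per chromosome or in stretches.

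On chromosome 1, OsbZIP11 lay 5 genes before Os01g0860500, which read 9.79, 10.11 and 9.29 against 12.09, 11.80 and 11.64. The next gene, Os01g0860601, read 7.89, 9.48 and 8.14 against 14.68, 14.08 and 14.34. Its gap of 4.60 was longer than that of its neighbour, and it was outside the rule because its Varadan arrays among the low 3 differed by more than 1. The array design gives the probe sets of these 2 genes the same cluster name, and how far each probe set reads the other transcript was not tested.

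**Figure D4:**
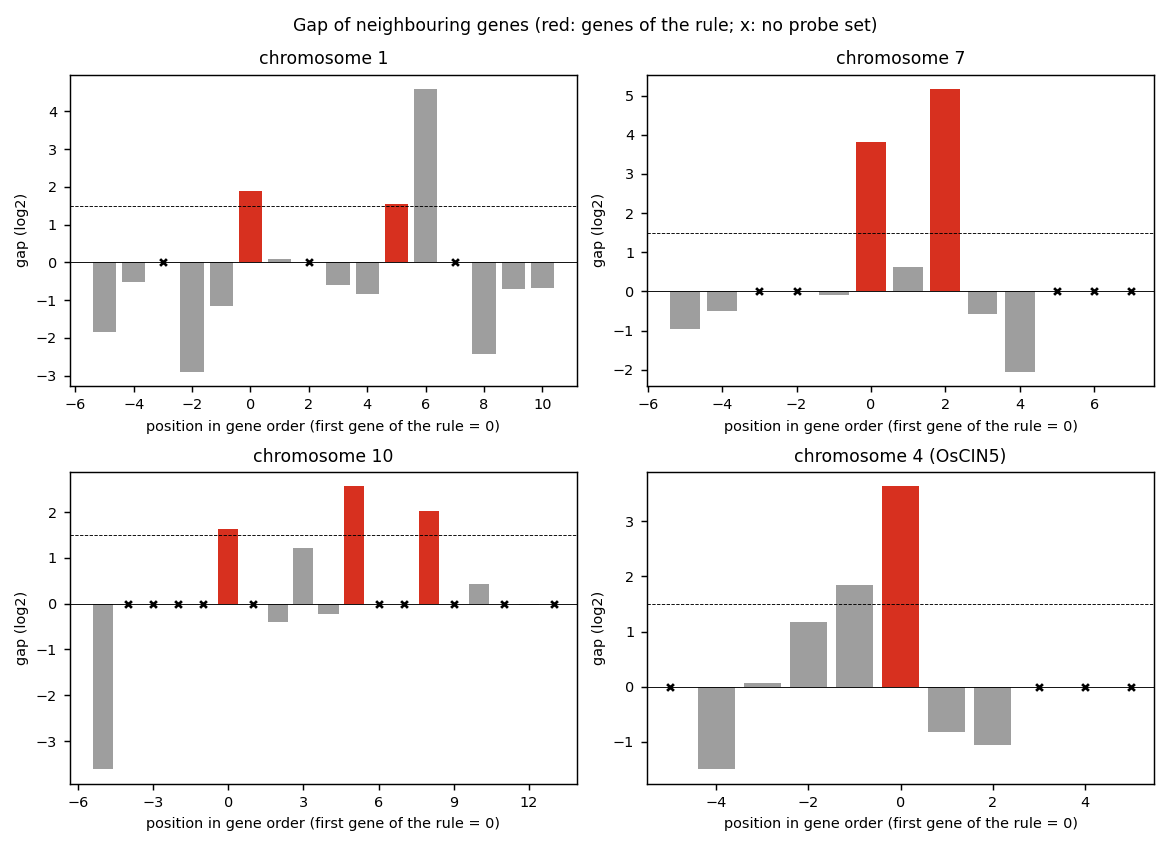
Gap (log2) of each gene by its place in the gene order around 4 stretches, with red bars for genes among the 65, grey bars for other genes and crosses for genes without a probe set. The dashed line marks 1.5; red bars stand beside grey bars at or below 0, and the grey bar above the dashed line on chromosome 1 is Os01g0860601, at 4.60.

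Within the low arrays, Prasanna without nitrogen stood apart more often than the Varadan arrays, which the rule held within 1 log2 unit of each other. It was the lowest of the 3 in 32 genes, against 22 for Varadan with nitrogen, replicate 1, and 11 for Varadan without nitrogen. In the other deposited table the 22 and 11 change places. The difference of Prasanna without nitrogen from the mean of the Varadan arrays had a median of -0.17. It was -1 or lower in 8 genes, with readings below the 40th percentile raised to that percentile, and 1 or higher in 0. The rule set an upper limit for every low array, but no lower limit for Prasanna without nitrogen. Each Varadan low array was tied to the other. Matching counts over all tested probe sets are not given here, so nothing is read from these counts. In Os10g0455100, Prasanna without nitrogen read 10.32 and the Varadan arrays 12.79 and 12.61, against 14.82, 15.11 and 15.02 on the high arrays. A second probe set of that gene read 7.34, 9.29 and 8.44 against 14.82, 15.22 and 14.71. The low arrays kept the same order in both probe sets, but the gaps were 2.03 and 5.42.

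Os03g0684700 had 6.33, 8.80 and 8.23 against 11.32, 11.39 and 10.61, and Os05g0162000 had 8.92, 11.05 and 10.49 against 13.42, 12.65 and 12.82. In both, Prasanna without nitrogen lay about as far below the Varadan low arrays as those lay below the high arrays. Os02g0599175 and Os01g0248300 had their lowest readings, 5.04 and 3.19, in Prasanna without nitrogen. Both readings were below the 40th percentile of that array, so the differences from the Varadan arrays are -1.58 or lower and -0.80 or lower. In the other direction, Prasanna without nitrogen exceeded the mean of the Varadan low arrays by 0.97 in Os01g0915000, 0.90 in Os09g0484900, 0.75 in Os04g0686800, 0.61 in OsCIN5 and 0.60 in Os03g0265900.

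Among the high arrays, Varadan with nitrogen, replicate 2, differed from the mean of the Prasanna arrays by a median of 0.00. It was higher in 32 genes and lower in 32. Os12g0516000 read 12.60 and 13.01 in Prasanna and 14.09 in Varadan. Os07g0158900 read 11.12 and 10.33 in Prasanna and 8.91 in Varadan, and Os12g0455000 read 11.12 and 10.00 in Prasanna and 9.13 in Varadan. The Varadan array lay outside the Prasanna pair by more than the pair itself differed in Os12g0516000 and Os07g0158900, and by less in Os12g0455000. The Prasanna arrays with nitrogen differed from each other at least 2-fold in 2 of the 65 genes, against 5848 of 34316 tested probe sets; the rule favours genes with a small spread.

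Whether the genes differed between the varieties was tested on 5 arrays, leaving out Varadan with nitrogen, replicate 1. On these arrays the rule fixes no direction of that contrast, but it used their values. It also leaves Prasanna without nitrogen freer to be low than Varadan without nitrogen. The limma model held variety and nitrogen supply, with Benjamini-Hochberg adjustment over 34316 probe sets at 0.05. Of all tested probe sets 2.39% passed, 392 higher and 428 lower in Varadan, and 0 of the 70 probe sets of the rule passed. At an unadjusted p below 0.05, 18 of the 70 probe sets were counted, 14 higher and 4 lower in Varadan, beside 13.8% of all tested probe sets, of which 2107 were higher and 2614 lower. The rule's preference for a small spread bears on such a count, and its limit on the Varadan low arrays bears on the direction. Nothing is read from either. Differences of the 67 probe sets with every reading above the 40th percentile ran from -1.34 for Os07g0158900 to 1.14 for Os12g0282000.

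Os05g0551000 came nearest to the threshold. It read 10.54 and 11.18 without nitrogen in Prasanna and Varadan, and 13.35, 13.35 and 14.14 with nitrogen in Prasanna, replicates 1 and 2, and Varadan, replicate 2. Varadan was the higher at both supplies, by 0.73 ± 0.14 log2 units (SE, n = 5 arrays, limma adjusted p = 0.0563). Os12g0282000 had 9.89 and 11.48 without nitrogen and 13.26, 13.85 and 14.36 with it, a difference of 1.14 ± 0.25 (SE, n = 5 arrays, limma adjusted p = 0.078). OsCIPK10 differed by 0.77 ± 0.17 (SE, n = 5 arrays, limma adjusted p = 0.0816). Os07g0158900 differed by -1.34 ± 0.36 (SE, n = 5 arrays, limma adjusted p = 0.142), and by -0.71 without Varadan with nitrogen, replicate 2. These differences did not pass, and calls among the 70 probe sets numbered 0 to 3 in other settings. With the values of the series matrix, where the Varadan array without nitrogen is the exchanged one, 3 passed, both probe sets of Os05g0551000 and 1 of OsCIPK10.

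**Figure D5:**
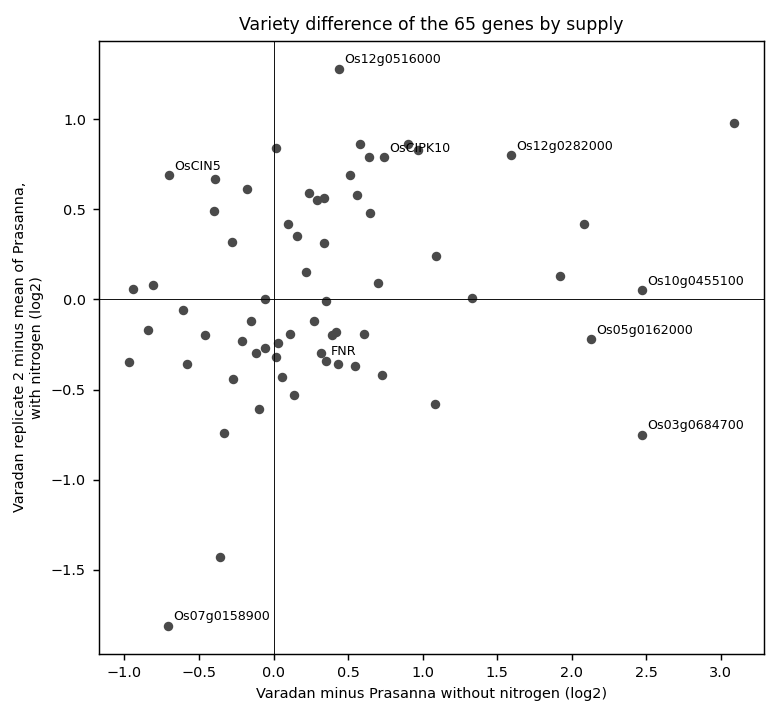
Difference between the varieties (Varadan minus Prasanna, log2) for each of the 65 genes, without nitrogen (1 array against 1, horizontal axis) and with nitrogen (Varadan replicate 2 against the mean of 2 Prasanna arrays, vertical axis). Points at the right, such as Os10g0455100 and Os03g0684700, were lower in Prasanna than in Varadan without nitrogen, and Os07g0158900 at the bottom had a difference of -1.81 with nitrogen.

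The same 5 arrays gave a test of whether the response to missing nitrogen differed between the varieties. Its spread comes from the Prasanna pair with nitrogen, and each lone array was assumed to vary like that pair. Of all tested probe sets 0% passed in limma after adjustment, and 0 of the 70 passed. At an unadjusted p below 0.05 the count was 13 of 70, beside 7.06% of all tested probe sets. In 10 of the 13 the difference was positive, which in these genes is the longer step between supplies in Prasanna. Over all tested probe sets 1360 such differences were positive and 1062 negative. The rule favours a small spread on the Prasanna pair that sets the spread of this test. It also leaves Prasanna without nitrogen freer to be low than Varadan without nitrogen. Nothing is read from the count or its direction. Os03g0684700 differed by 3.22 ± 0.37 log2 units (SE, n = 5 arrays, limma adjusted p = 0.62) and Os10g0455100 by 2.41 ± 0.35 (SE, n = 5 arrays, limma adjusted p = 0.62). Both had the longer step in Prasanna. OsCIN5 had the opposite sign, at -1.39 ± 0.34 (SE, n = 5 arrays, limma adjusted p = 0.646), with the longer step in Varadan. Over all 6 arrays its sign turned, to 1.04.

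The comparison the study was built for, without against with nitrogen by label over all 6 arrays, holds most of the rule's own contrast. In the limma fit with variety as a term, 0% of all tested probe sets passed and 0 of the 70 did. At an unadjusted p below 0.05 the count was 52 of 70, beside 21.6% of all. All 70 had lower fitted values without nitrogen, with a median of -2.03. Without Varadan with nitrogen, replicate 1, all 70 passed as lower, beside 7.5% of all tested probe sets. Nothing about the genes is read from either count, since the rule chose them by these values.

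Some features of the whole arrays moved with the split or with part of it. The mean of 8 green tissue markers was 10.88, 12.42 and 11.71 on the low arrays and 10.83, 10.51 and 10.92 on the high arrays, so both Varadan low arrays were above all others. The mean of 8 markers of dividing root tips was 8.82, 8.58 and 9.71 against 9.22, 9.69 and 9.69. None of these 16 markers was among the 65 genes. Of the root genes, the silicon transporter Lsi1 read between 14.52 and 15.21 on all arrays, and its partner Lsi2 read 14.61, 14.83 and 14.27 on the low arrays against 13.59, 13.57 and 13.68. OsPIN2, an auxin efflux carrier, read 9.65, 8.60 and 9.52 against 10.10, 10.68 and 10.22. Lsi2 was higher and OsPIN2 lower on every low array than on every high array. The difference of the 3' and 5' probe sets of a control gene is a measure of RNA integrity. For actin it was 5.23, 5.76 and 5.82 on the low arrays against 5.18, 5.15 and 5.15, larger on every low array. For GAPDH it split by variety, from 3.06 to 3.52 in Prasanna and from 4.38 to 4.77 in Varadan, and for cyclophilin it overlapped between low and high arrays. Over its 12 probe sets, the Bacillus spike-in control read 10.96, 11.04 and 9.53 on the low arrays against 10.99, 9.87 and 7.84. It was lowest on Varadan with nitrogen, replicate 2, an array the 5-array tests used. The part of these values in the split, or in those tests, was not tested.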

How the data were processed

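Root RNA was hybridised to 6 Affymetrix rice arrays. The signals were made with MAS5, per the submitters' processing notes; no version is given there. The authors deposited a log2 table, used here unchanged, and a series matrix of the same signals as linear intensity, per the values. Each array had a mean of 500 after trimming 2% at each end, which hides any shift common to most genes. The tables matched within 1e-06 in log2, apart from 2 Varadan columns that were exchanged.

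Of 57381 probe sets, 187 controls were left out; 34316 with a mean at or above the 40th percentile were tested, and all 70 of the rule were among them. No detection calls were used: readings below their array's 40th percentile (4.89 to 5.42) were not taken as above background, and folds that rest on them are bounds. One probe set a gene was used. For the 65 genes it was that with the highest mean over the 6 arrays among the probe sets that met the rule. For other genes in lists it was that with the highest mean of all their probe sets. Of the 65 genes, 60 matched a reference table (assembly ASM3414082v1), used for names and gene order only. It holds no descriptions, so gene lists were matched by synonyms. A planned motif description of promoters was not run.

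Tests used limma 3.58.1 in R 4.3.3 (lmFit, eBayes with trend), two-sided. On simulated data with 200 changed of 34316 probe sets, the variety test recovered 51% at a log2 change of 2 and 83% at 4, and the test of response differences 25.5% and 64%. False calls at these sizes were 8 beside 102 recovered and 19 beside 166 in the variety test, and 48 beside 51 and 58 beside 128 in the test of response differences, so calls of the latter would not hold the nominal rate; it made none here. Changes of 1 were recovered in 0% by both.

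The genes and lists were chosen with earlier results of these data known. Genes named are the 10 with the longest gaps, those in lists, those past a test, 3 on each side of the gap limit, the 5 with the highest mean and the 5 on each side that differ most between Prasanna without nitrogen and the Varadan low arrays. Values added to these, chosen after they were seen, are those of neighbours, other probe sets, other list genes and the extremes of each test. Replicate number 1 is only a name.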

Additional observations from a re-analysis of the deposited data

How the results depend on the processing

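With 6 arrays and lone arrays without nitrogen, the number of arrays limits the precision, and dim probe sets are noisy. No paired analysis was possible because the labels print a single replicate number, 2; the number 1 is only a name given here. The rule gave 156 genes with a gap of 1 and 26 with a gap of 2; leaving out 1 array at a time gave 82 to 124, with 118 without Varadan without nitrogen and 124 without Varadan with nitrogen, replicate 1. The variety test called 820 probe sets, 32 without the variance trend, and 193 to 1280 with 1 array left out: 345 without Prasanna without nitrogen, 1280 without Prasanna with nitrogen, replicate 1, 444 without Varadan without nitrogen and 193 without Varadan with nitrogen, replicate 2. Among the 70 probe sets it called 0, 1 in the robust fit, 1 after quantile normalization, 3 in the series matrix, and 0 to 3 with 1 array left out (3 without Prasanna with nitrogen, replicate 2, and 1 without Varadan with nitrogen, replicate 2). Over all 6 arrays the variety differences of Os05g0551000 and OsCIPK10 turned to -0.22 and -0.08, those of Os12g0282000 and Os07g0158900 moved to 0.07 and -2.37, and the response difference of OsCIN5 turned to 1.04; that fit adds an array the rule had used. The nitrogen test by label called 0 to 4616 probe sets with 1 array left out and 0 to 70 of the 70, the highest counts without Varadan with nitrogen, replicate 1. The test of response differences with 1 array left out was not run, since no residual degrees of freedom remain or the contrast cannot be estimated. The other causes were not tested.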
